A study of Mus musculus with 12 samples.

Results

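Complement is a cascade of plasma and tissue proteins that marks cells, synapses and microbes for removal, and 10 of its genes other than the C1q subunits are described here in BV2, an immortalised mouse microglial cell line. They were picked by gene symbol as components (C1ra, C3, C4b, Cfb, Cfp), an inhibitor (Serping1) and receptors (C3ar1, C5ar1, Itgax, Itgb2), among 46078 genes in the deposited table. All 10 had at least 1 read, but only 8 passed a filter on low values that left 10981 genes. Cfb and Serping1 did not pass. C1ra and C4b passed only through the IFNγ libraries, where they are high, so a count over the 8 members is no support for a rise of the list as a whole.

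The cells were either Atg5 KO, lacking the autophagy gene Atg5, or WT, and were kept for 24 h with 1 U/mL of interferon gamma (IFNγ), the macrophage-activating cytokine, or in medium without it. The groups were therefore Atg5 KO with IFNγ, WT with IFNγ, Atg5 KO in medium and WT in medium, with 3 libraries each, lettered A, B and C. Cytosolic RNA was sequenced from the 3′ ends of its poly-A transcripts after removal of the nuclei. The number of knockout clones is not given in the sources used here, so a difference between genotypes cannot be told apart from a difference between clones. The design text says that independent biological replicates were pooled in 1 library, whereas the protocol describes replicates made one by one with their own barcodes.

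C1r is the protease of the C1 complex that, once C1q has bound a target, activates C1s, which cleaves C4 to start the classical pathway. C3 is the hub on which all routes converge: its fragments coat targets and, as C3a, signal through the C3a receptor. Factor B and properdin (Cfp) drive the alternative pathway loop, and C1 inhibitor (Serping1) blocks C1r and C1s. In the brain, microglia are known as a main source of C1q and as the cells that engulf complement-tagged synapses through the integrin receptor made of Itgam and Itgb2.

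The libraries held 3329849 to 7330435 reads. Atg5 itself had log2 values of 8.74 to 8.83 in Atg5 KO and 8.86 to 8.96 in WT libraries with IFNγ, and in medium 8.68 to 9.02 in Atg5 KO and 8.35 to 8.57 in WT libraries. The altered part of the gene is not given in the sources used here, and 3′ reads outside it check nothing, so the genotypes rest on the labels. All 14 listed macrophage and microglia markers were read, among them Cd68 with group means of 10.78 to 11.00 and Csf1r with 9.35 to 9.87 on the log2 scale used throughout, the deposited log2 of the normalised count plus 1. Not all of them were steady. With IFNγ, Aif1 changed by 3.56 in Atg5 KO and 3.57 in WT cells (limma adjusted p under 0.05 in each). Trem2 changed by -0.88 in Atg5 KO and -0.85 in WT cells (limma adjusted p under 0.05 in each). The homeostatic microglial markers P2ry12 (group means 2.08 to 2.91) and Tmem119 (1.12 to 3.26) were low, and Sall1 had 1 read. All 5 hepatocyte markers were at 0, 4 of 5 fibroblast, 2 of 4 astrocyte and 3 of 5 neutrophil markers were at 0, and so were the T and NK cell markers Cd3e, Cd3g and Ncr1. Of that list only Lck was read, and its normalised count was 17.0 to 41.6 in Atg5 KO and 32.5 to 56.8 in WT libraries with IFNγ, against 14.6 to 15.3 in Atg5 KO and 10.6 to 12.8 in WT libraries in medium. Its part in the results was not tested. Among IFNγ libraries, those of letter C stood apart, WT library C further than Atg5 KO library C. The IFNγ-induced transcription factor Irf1 had log2 values of 11.22, 11.02 and 9.86 in Atg5 KO and 11.22, 11.07 and 8.93 in WT libraries A, B and C. Gbp2, an IFNγ-induced GTPase, had 13.05, 12.72 and 11.93 in Atg5 KO and 12.52, 12.70 and 10.18 in WT libraries.

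Promoter sequences, from 250 bases before to 50 after the RefSeq start on GRCm38.p6, were at hand for 6 of the 10 members: C1ra, C3, Cfp, C3ar1, C5ar1 and Itgax. They were searched on both strands for TTCNNNGAA, the gamma-activated sequence (GAS), and for GAAANNGAA, a core of the element bound by interferon regulatory factors (ISRE). TTCNNNGAA occurs in 8.30% and GAAANNGAA in 8.56% of 32851 RefSeq promoters of the same length. One more motif, TTGCNNAA, a core bound by C/EBP factors, was chosen after the C3 sequence had been read, and occurs in 10.8% of them. The 3 stretches below are shown because they hold all the matches found in these 6 members, and 2 of them belong to members called higher with IFNγ. In the C3 stretch, the 250 bases before the start at chr17:57228137-57228386 on the minus strand, the capitals mark TTGCGAAA at positions -45 to -38, counted with the first transcribed base as 1. C3 had neither of the interferon elements in this window.
C3: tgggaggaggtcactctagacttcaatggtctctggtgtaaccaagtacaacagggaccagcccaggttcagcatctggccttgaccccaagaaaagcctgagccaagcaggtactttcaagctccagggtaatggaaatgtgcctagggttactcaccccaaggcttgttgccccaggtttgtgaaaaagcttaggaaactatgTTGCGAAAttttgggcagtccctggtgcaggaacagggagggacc
In C1ra, 30 bases at chr6:124512635-124512664 on the plus strand, the first capitals mark TTGCNNAA read on the minus strand at positions 17 to 24 and the second mark TTCCCTGAA at 33 to 41. This RefSeq start lies inside the GENCODE M21 gene, so the window covers only that start.
C1ra: gtTTATGCAAatgcttcaTTCCCTGAAaca
In C5ar1, 30 bases at chr7:16259385-16259414 on the minus strand, the capitals mark GAAANNGAA read on the other strand at positions -66 to -58. The RefSeq start of C5ar1 also lies inside its GENCODE M21 gene, which reaches 16259540. This stretch thus lies before the RefSeq start but within the GENCODE gene.
C5ar1: agagacttccTTCCTTTTCcaagttgacat
Cfp, C3ar1 and Itgax held none of the 3 motifs. These matches describe the letters in the windows and do not show that a factor is bound.

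With IFNγ, calls fell on 3 component genes, while Cfp and the receptor genes had no called change in either genotype. A missing call does not show that a gene was unchanged. C1ra and C3 were called higher with IFNγ in Atg5 KO and in WT cells, and C4b was called higher in WT cells. In limma fits over the 10981 genes, at a Benjamini-Hochberg adjusted p under 0.05, 2 of the 8 tested members (2 of 10 in all) were called higher in Atg5 KO cells and 3 in WT cells, and none was called lower. Over all genes tested, 4.67% were called higher and 2.69% lower in Atg5 KO cells, and 4.53% higher and 2.12% lower in WT cells. The median log2 change over the tested members was 0.23 in Atg5 KO and 0.41 in WT cells, beside 0.01 and -0.02 over all genes. Because C1ra and C4b passed the filter only through the IFNγ libraries, neither these counts nor these medians support a rise of the list. The plot of values by library shows each group side by side.

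**Figure D1:**
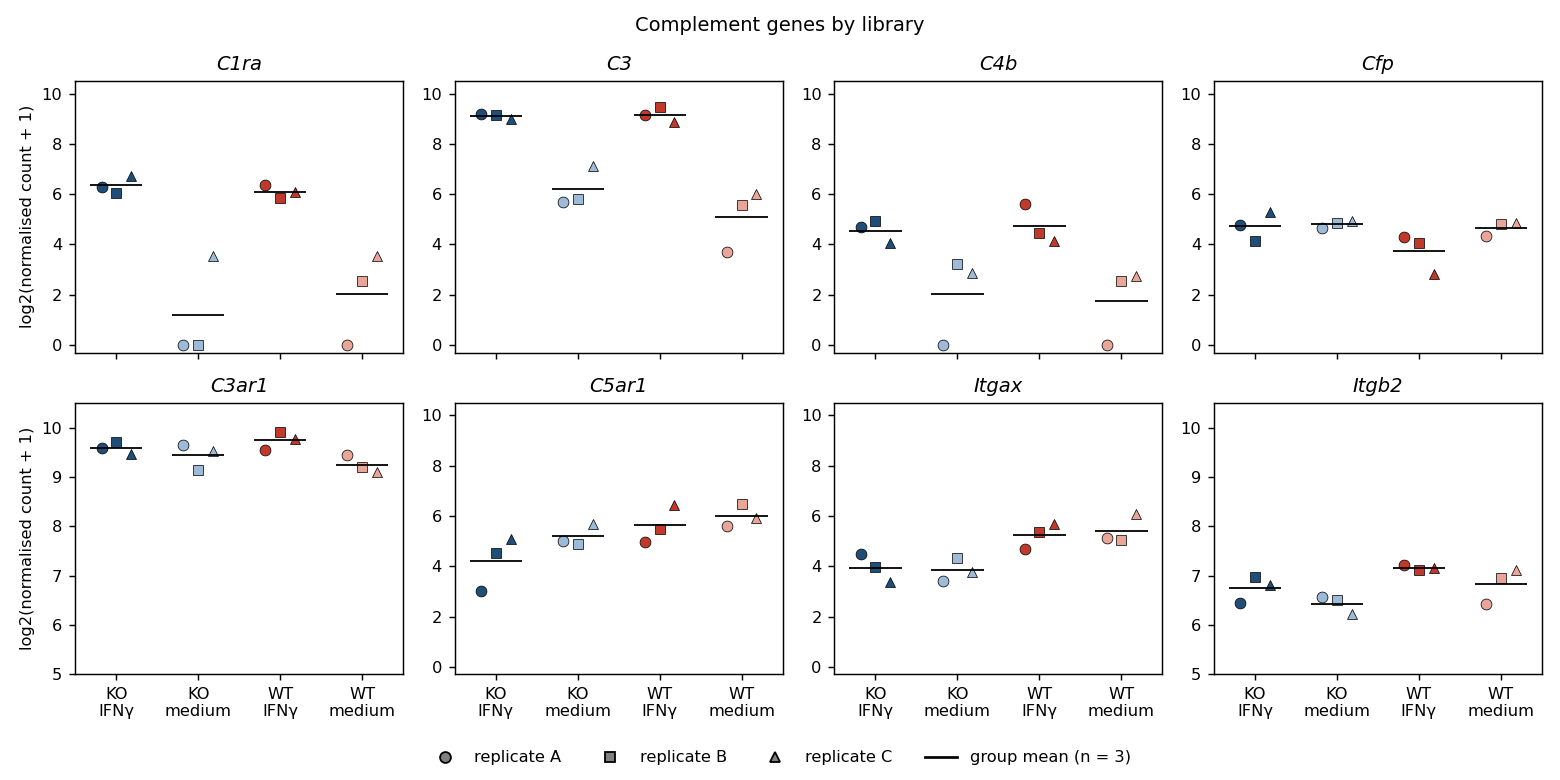
Deposited log2 values (log2 of the normalised count plus 1, vertical axis) of the 8 tested members in the 12 libraries, by group on the horizontal axis, each point a library and each bar a group mean. The axes of C3ar1 and Itgb2 start higher than the others. C1ra, C3 and C4b are higher in all 6 IFNγ libraries than in all 6 medium libraries, and Itgax is lower in all 6 Atg5 KO libraries than in all 6 WT libraries.

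C3, the central component (ENSMUSG00000024164, chromosome 17, 57203970 to 57228136, minus strand, GRCm38), had the smallest adjusted p of the members with IFNγ in each genotype. In Atg5 KO cells its log2 values were 9.20, 9.14 and 9.01 with IFNγ, against 5.68, 5.79 and 7.13 in medium. In WT cells they were 9.16, 9.45 and 8.88 with IFNγ, against 3.72, 5.56 and 6.02 in medium. Every IFNγ library stood above every medium library of either genotype, and the medium libraries were spread over a wider range than the IFNγ libraries. With IFNγ the group mean was 9.12 ± 0.10 in Atg5 KO and 9.16 ± 0.29 in WT cells, and in medium it was 6.20 ± 0.81 in Atg5 KO and 5.10 ± 1.22 in WT cells (SD, n = 3 each). The log2 change was 2.92 in Atg5 KO cells (SE 0.44, limma adjusted p = 0.000154), a 7.55-fold difference in the normalised count plus 1. In WT cells it was 4.06 (SE 0.44, limma adjusted p = 2.55e-06), a 16.7-fold difference. Behind these values stood 1772 reads in Atg5 KO and 1510 in WT cells with IFNγ, and 233 reads in Atg5 KO and 141 in WT cells in medium. In WT library C, where Irf1 and Gbp2 were low, C3 also had its lowest value among IFNγ libraries. Without that library the change in WT cells was 4.21 (limma adjusted p = 8.16e-06), and without WT medium library A, the lowest of all, it was 3.37 (limma adjusted p = 8.08e-06).

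C1ra, the gene of the C1r protease (ENSMUSG00000055172, chromosome 6, 124512405 to 124523443, plus strand), was called higher with IFNγ over very few reads in medium. In Atg5 KO cells the log2 values were 6.27, 6.07 and 6.71 with IFNγ, against 0, 0 and 3.54 in medium, which rest on 64, 72 and 134 reads with IFNγ against 0, 0 and 10 reads in medium. In WT cells they were 6.35, 5.85 and 6.07 with IFNγ, against 0, 2.53 and 3.53 in medium, resting on 64, 54 and 55 reads with IFNγ against 0, 6 and 11 reads in medium. All IFNγ libraries lay within a narrow band and above all medium libraries, and 3 of the 6 medium libraries held no C1ra read. The log2 change was 5.17 in Atg5 KO cells (SE 0.84, limma adjusted p = 0.000383) and 4.07 in WT cells (SE 0.84, limma adjusted p = 0.00433). Because C1ra passed the filter only through the IFNγ libraries, these p-values come from a gene tested because it is high there. With medium libraries at 0, the size of the change depended on the scale: with 5 in place of 1 added to the normalised counts, the change was 3.55 in Atg5 KO and 2.98 in WT cells. Without Atg5 KO medium library C, the only medium library of that genotype with a C1ra read, it was 6.35 in Atg5 KO cells, and without Atg5 KO medium library A or B it was 4.58. In WT cells it was 3.06 without WT medium library A (limma adjusted p = 0.0372). Unlike C3 and C4b, C1ra in WT IFNγ library C lay between the other two libraries of its group.

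C4b, whose product is cleaved by C1s and becomes part of the classical convertase (ENSMUSG00000073418, chromosome 17, 34728380 to 34743882, minus strand), was read at lower counts. In Atg5 KO cells it had 21, 32 and 20 reads with IFNγ, against 0, 11 and 6 in medium. In WT cells it had 38, 20 and 14 reads with IFNγ, against 0, 6 and 6 in medium. As log2 values these were 4.70, 4.92 and 4.04 in Atg5 KO and 5.61, 4.46 and 4.16 in WT libraries with IFNγ, against 0, 3.23 and 2.88 in Atg5 KO and 0, 2.53 and 2.75 in WT libraries in medium. No medium library reached the lowest IFNγ library. The log2 change was 2.52 in Atg5 KO cells (SE 0.83, limma adjusted p = 0.0773), which missed the threshold, and 2.98 in WT cells (SE 0.83, limma adjusted p = 0.0348). Like C1ra, C4b was tested because it is high with IFNγ, since it passed the filter only through those libraries. The WT call was lost without WT medium library A (2.10, limma adjusted p = 0.179) or B (adjusted p = 0.0529), and without WT IFNγ library A (2.55, adjusted p = 0.167) or B (adjusted p = 0.0871). With all libraries kept, it was also lost with no filter on low values (limma adjusted p = 0.0827) and with no mean-variance trend (adjusted p = 0.0870). The Atg5 KO value passed with 5 added to the normalised counts (1.60, limma adjusted p = 0.0383). The difference between the genotypes in the C4b response was -0.46 (SE 1.18, limma adjusted p = 0.964), so these 2 results do not show that the response differed.

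Both genotypes were also averaged in the same model, a contrast added after the single ones had been seen. IFNγ then raised C3 by 3.49 (SE 0.31, limma adjusted p = 7.98e-08), C1ra by 4.62 (SE 0.60, adjusted p = 1.35e-05) and C4b by 2.75 (SE 0.59, adjusted p = 0.003). These 3 were the members called higher, and none was called lower, where 8.35% of all genes were called higher and 5.79% lower. They were also the only tested members whose 6 IFNγ libraries did not overlap the 6 medium libraries, which held for 7.09% of all genes in either direction. Within a genotype, C1ra, C3 and C4b did not overlap in Atg5 KO cells, where 24.4% of all genes did not. In WT cells these 3 and C3ar1 (higher) and Cfp (lower) did not overlap, beside 24.1% of all genes. Because C1ra and C4b passed the filter only through the IFNγ libraries, the counts of called and of not overlapping members support nothing about the list. The averaged p-values of C1ra and C4b likewise come from genes tested because they are high with IFNγ.

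**Figure D2:**
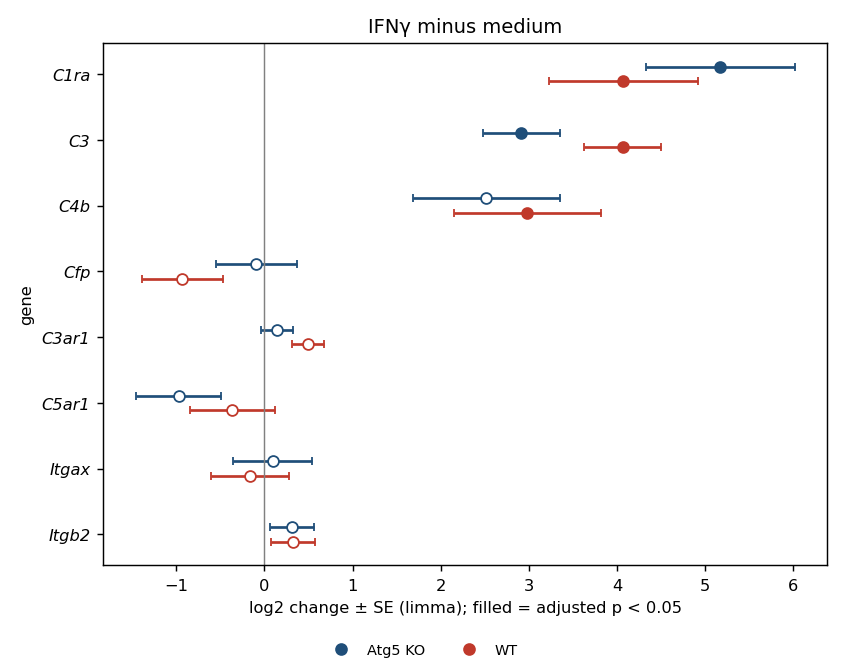
limma log2 change with IFNγ against medium (horizontal axis, bars ± SE) for the 8 tested members, in Atg5 KO and in WT cells; filled points passed an adjusted p under 0.05. C1ra (5.17 in Atg5 KO, 4.07 in WT cells) and C3 (2.92 in Atg5 KO, 4.06 in WT cells) are filled in both genotypes, C4b in WT cells, and the receptors and Cfp lie near 0 or short of the threshold.

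Some of these reads could belong to close copies. Over the last 500 bases of the transcript, where 3′ reads fall, C4b matched its duplicate C4a at 98% identity over 499 bases, and C1ra matched C1rb at 98.9% over 181 bases. C4a had 2 reads and C1rb 1 read over all 12 libraries. How reads that fit both copies were counted is not given in the sources used here, so the C4b and C1ra counts are uncertain to that extent.

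The alternative pathway was read thinly. Factor B (Cfb, ENSMUSG00000090231, chromosome 17, 34856374 to 34862518, minus strand), the catalytic subunit of the alternative convertase, had 1 read in all, in WT IFNγ library A. That count is uncertain, because Gm20547, a protein-coding model on the same strand with 0 reads, overlaps it and shares 462 of its last 500 bases at 100% identity. With 0 reads among 17889391 Atg5 KO reads with IFNγ and among 15203660 in medium, up to 3 assigned reads in each total lie within counting error. How reads that fit both genes were counted is not given, so this sets no upper limit on Cfb RNA. Such limits and intervals cover counting error only.

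Properdin (Cfp, ENSMUSG00000001128, chromosome X, 20925454 to 20931555, minus strand), which stabilises the alternative convertase, was read in all 12 libraries. In Atg5 KO cells its log2 values were 4.76, 4.13 and 5.31 with IFNγ, against 4.66, 4.87 and 4.94 in medium. In WT cells they were 4.31, 4.07 and 2.81 with IFNγ, against 4.32, 4.81 and 4.85 in medium. The WT IFNγ libraries lay below the WT medium libraries, by almost nothing at the nearest pair, while the Atg5 KO groups overlapped. The log2 change was -0.09 in Atg5 KO cells (95% interval -1.05 to 0.86, limma adjusted p = 0.944) and -0.93 in WT cells (-1.88 to 0.02, limma adjusted p = 0.264).

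C1 inhibitor (Serping1, ENSMUSG00000023224, chromosome 2, 84765387 to 84775444, minus strand), the serpin that inactivates C1r and C1s, was seen in WT cells alone. It had 6 reads in WT IFNγ library B, 1 read in WT medium library B and none in the other 10 libraries. Over the groups the ratio in WT cells was 8.42 (exact 95% interval 1.02 to 387, counting error only), but all IFNγ reads came from 1 library, and the ratio rests on it. The counts below the filter are plotted beside the medium levels of C1ra and C4b.

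**Figure D3:**
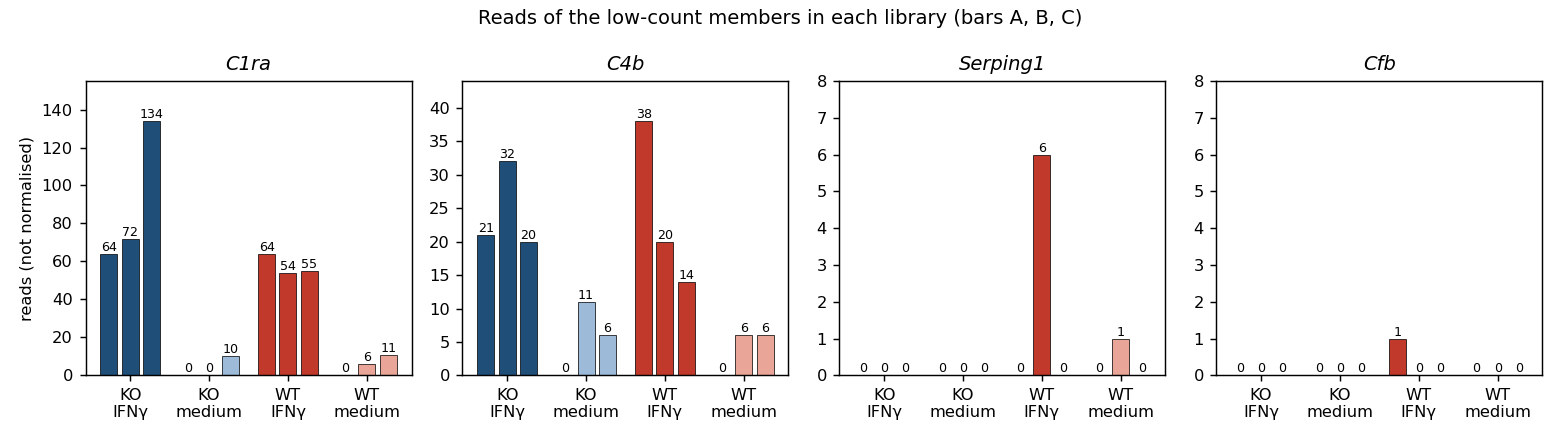
Reads (vertical axis) of Serping1, Cfb, C1ra and C4b in each library by group. Serping1 is seen mainly as the 6 reads of 1 WT IFNγ library, Cfb as 1 read, while C1ra has 54 to 134 reads and C4b 14 to 38 reads in every IFNγ library.

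The anaphylatoxin receptors sense the small fragments released when C3 and C5 are cleaved. The C3a receptor (C3ar1, ENSMUSG00000040552, chromosome 6, 122847138 to 122856161, minus strand) had log2 values of 9.59, 9.70 and 9.45 in Atg5 KO libraries with IFNγ, against 9.64, 9.15 and 9.52 in medium. In WT libraries they were 9.54, 9.91 and 9.77 with IFNγ, against 9.45, 9.19 and 9.10 in medium. The WT groups did not overlap and the Atg5 KO groups did. The change was 0.15 in Atg5 KO cells (95% interval -0.24 to 0.53, limma adjusted p = 0.742) and 0.49 in WT cells (0.11 to 0.88, limma adjusted p = 0.124), and neither passed the threshold. With 1922 to 2459 reads a group, its values varied by no more than 0.26 (SD) within a group.

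The C5a receptor (C5ar1, ENSMUSG00000049130, chromosome 7, 16246743 to 16259540, minus strand) varied more between libraries. In Atg5 KO cells its log2 values were 3.02, 4.52 and 5.10 with IFNγ, against 4.99, 4.87 and 5.70 in medium. In WT cells they were 4.96, 5.50 and 6.45 with IFNγ, against 5.61, 6.46 and 5.94 in medium. Groups overlapped in both genotypes, and libraries of letter C were the highest of the IFNγ groups. The change with IFNγ was -0.97 in Atg5 KO cells (95% interval -1.99 to 0.04, limma adjusted p = 0.284) and -0.36 in WT cells (-1.38 to 0.65, limma adjusted p = 0.74). Averaged over genotypes it was -0.67 (limma adjusted p = 0.228), and with both letter C libraries of the IFNγ groups left out it was -1.09 (adjusted p = 0.0334).

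Itgax (CD11c) and Itgb2 (CD18) encode the chains of the integrin known as complement receptor 4, which binds C3-coated targets. Itgb2 also pairs with other alpha chains, such as that of Itgam. IFNγ left Itgax with a change of 0.09 in Atg5 KO cells (95% interval -0.84 to 1.03, limma adjusted p = 0.942) and -0.16 in WT cells (-1.10 to 0.77, limma adjusted p = 0.888). For Itgb2 the change was 0.31 in Atg5 KO cells (-0.21 to 0.83, limma adjusted p = 0.553) and 0.32 in WT cells (-0.20 to 0.85, limma adjusted p = 0.518).

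Between genotypes, the only member called in the reported fits, and only averaged over treatments, was Itgax (ENSMUSG00000030789, chromosome 7, 128129547 to 128150657, plus strand). With IFNγ its log2 values were 4.49, 3.97 and 3.36 in Atg5 KO libraries, against 4.71, 5.36 and 5.69 in WT libraries. In medium they were 3.42, 4.33 and 3.78 in Atg5 KO libraries, against 5.13, 5.04 and 6.07 in WT libraries. All 6 Atg5 KO libraries lay below all 6 WT libraries, which held in either direction for 0.911% of all genes. Dendritic cell markers, read because Itgax also marks those cells, were at 0 for Ccr7, Cd209a and Flt3, 3 of 5. The summed normalised count of the list was 2.38 to 5.50 in Atg5 KO and 2.41 to 7.54 in WT libraries with IFNγ, and in medium 0 to 3.82 in Atg5 KO and 5.31 to 11.5 in WT libraries, and its part in the result was not tested. In bulk RNA, fewer cells that express a gene and less of its RNA per cell cannot be told apart. The log2 difference was -1.31 with IFNγ (SE 0.45, limma adjusted p = 0.217) and -1.57 in medium (SE 0.45, limma adjusted p = 0.204), and neither passed the threshold alone. Averaged over treatments, a contrast added after the single ones had been seen, it was -1.44 (SE 0.32, limma adjusted p = 0.023), a level 2.71-fold lower in Atg5 KO cells. This call rests on 46 reads with IFNγ and 43 in medium in Atg5 KO cells, and on 100 with IFNγ and 154 in medium in WT cells. It was lost in 8 of 19 alternatives, with adjusted p between 0.0504 and 0.127 in them, while the difference stayed between -1.58 and -1.19 in all 19. Among them were the fits without WT medium library C (limma adjusted p = 0.103), WT IFNγ library B (0.0599) or C (0.0540), Atg5 KO medium library A (0.0520) or Atg5 KO IFNγ library C (0.0641).

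Itgb2 (ENSMUSG00000000290, chromosome 10, 77530252 to 77565708, plus strand) had log2 values of 6.44, 6.97 and 6.82 in Atg5 KO libraries with IFNγ, against 7.21, 7.11 and 7.15 in WT libraries with IFNγ. In medium they were 6.57, 6.51 and 6.21 in Atg5 KO libraries, against 6.43, 6.95 and 7.12 in WT libraries. The groups did not overlap with IFNγ and overlapped in medium. The difference was -0.41 with IFNγ (95% interval -0.93 to 0.11, limma adjusted p = 0.538) and -0.40 in medium (-0.92 to 0.12, limma adjusted p = 0.751). Averaged over treatments it was -0.40 (limma adjusted p = 0.356).

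None of the 8 tested members passed the threshold in a single genotype comparison. With IFNγ, 0.492% of all genes passed, and 3 of the 8 members had an unadjusted limma p under 0.05, as did 1317 of all 10981 genes. In medium, 0.428% of all genes passed, and 2 of the 8 members had an unadjusted p under 0.05, as did 907 of all genes. The median log2 difference over the tested members was -0.17 with IFNγ and -0.12 in medium. Averaged over treatments, 1.48% of all genes passed, and Itgax was the 1 member among them. The libraries of Itgax and Itgb2 did not overlap with IFNγ, where 16.1% of all genes did not, and those of Itgax did not overlap in medium, where 13.6% did not.

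For C5ar1, the C5a receptor gene, the difference between genotypes was -1.42 with IFNγ (SE 0.48, limma adjusted p = 0.218), -0.81 in medium (SE 0.48, adjusted p = 0.726) and -1.12 averaged over treatments (SE 0.34, adjusted p = 0.137). Cfp differed by 1.00 with IFNγ (SE 0.46, limma adjusted p = 0.387) and by 0.17 in medium (adjusted p = 0.969). For the components that IFNγ raised, the differences between genotypes with IFNγ were 0.26 for C1ra (95% interval -1.51 to 2.02), -0.05 for C3 (-0.97 to 0.87) and -0.19 for C4b (-1.93 to 1.56). In medium, C3 averaged 2.14-fold higher in Atg5 KO cells (log2 interval 0.18 to 2.02), with overlapping libraries and a limma adjusted p = 0.501. Over the alternatives that log2 difference ranged from 0.41, without WT medium library A, to 1.56.

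**Figure D4:**
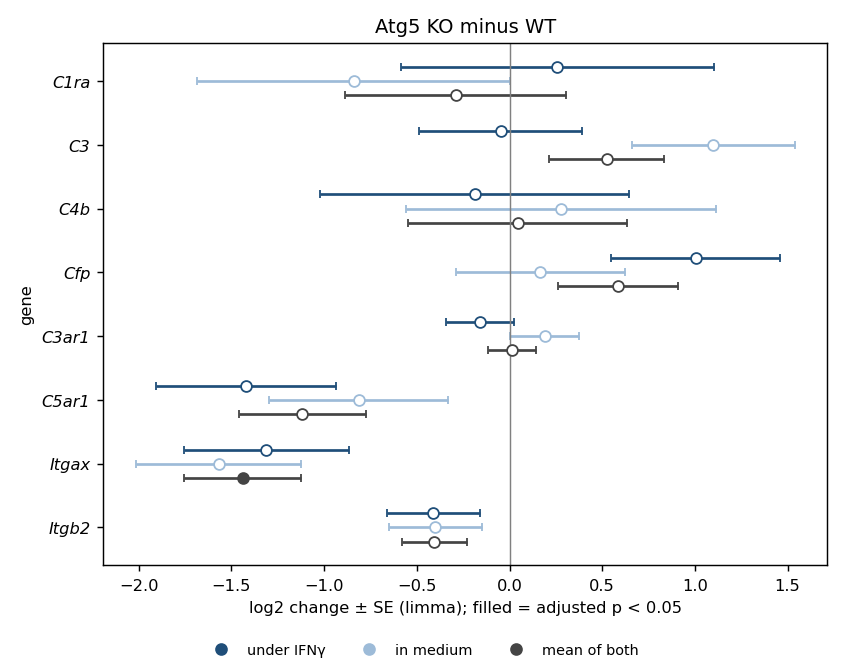
limma log2 difference of Atg5 KO from WT cells (horizontal axis, bars ± SE) for the 8 tested members, with IFNγ, in medium and averaged over treatments; filled points passed an adjusted p under 0.05. Only Itgax averaged over treatments (-1.44) is filled; C5ar1 and Itgb2 also lie left of 0 in each comparison.

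Whether IFNγ acted differently in the 2 genotypes was tested as an interaction. None of the tested members passed, and over all genes 0% passed (0 of 10981 by limma, and 0 by limma voom), with 792 genes at an unadjusted p under 0.05. No member was among those 792. The largest differences in response among members were C3, whose rise was smaller in Atg5 KO cells by 1.15 on the log2 scale (interaction -1.15, SE 0.62, limma adjusted p = 0.73) and C1ra, whose rise was larger there by about as much (SE 1.19, limma adjusted p = 0.882). At these standard errors, differences of this size were not detectable. Over the alternatives the C3 interaction ranged from -1.61 to -0.45, the latter without WT medium library A.

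Across the 12 libraries, the values of C1ra, C3 and C4b ran in parallel, with a Pearson r of 0.929 between C1ra and C3, 0.885 between C3 and C4b, and 0.864 between C1ra and C4b. These correlations are descriptions over libraries that share the treatment split, and carry no test. The kept genes most like C3 were Sp100 (r = 0.967), a nuclear body protein, and Tapbpl (0.965), a tapasin-related protein of MHC class I loading. Those most like C1ra were again Sp100 (0.957) and Rnf213 (0.955), and those most like C4b were Tex14 (0.957) and Crlf2 (0.941). Itgax was most like Fam43a (0.908) and Rundc3b (0.880), and its r with its partner chain Itgb2 was 0.521. Itgb2 was most like Gpr137b (0.954) and Lrp12 (0.944), C3ar1 like Ncstn (0.927) and Hsp90ab1 (0.901), C5ar1 like Sqrdl (0.956) and Fabp4 (0.912), and Cfp like Zc3h10 (0.888) and Nudt21 (0.887).

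The rest of the complement system was read from a list of 49 other genes, of which 48 were in the table, 27 had a read and 14 passed the filter. With IFNγ, 5 of the 14 were called higher and 1 lower in Atg5 KO cells, and 3 higher and 1 lower in WT cells, where 4.67% of all genes were called higher and 2.69% lower in Atg5 KO cells, and 4.53% higher and 2.12% lower in WT cells. C1s1, like C1ra and C4b, passed the filter only through the IFNγ libraries, where it is high, so these counts support nothing about the list. The median log2 change of the 14 was -0.30 in Atg5 KO and -0.03 in WT cells, beside 0.01 and -0.02 over all genes. The 3 C1q subunit genes, which form the recognition part of C1, were called higher in both: C1qa by 6.43, C1qb by 5.77 and C1qc by 4.39 in Atg5 KO cells, and by 3.14, 3.48 and 2.57 in WT cells. The Atg5 KO medium group held only 13 C1qa reads, with 1 library at 0, so the size of that change is uncertain. As an interaction none of the 3 passed (limma adjusted p of 0.106 to 0.379), though C1qa and C1qb each passed in fits with libraries left out. In medium they were called lower in Atg5 KO than in WT cells, with C1qa at -3.21, C1qb at -2.58 and C1qc at -2.09. In that comparison C1qa lost its call by limma voom (-3.41, adjusted p = 0.508) and, with limma, without any 1 WT medium library (adjusted p of 0.0549 to 0.0722). With no mean-variance trend C1qa (limma adjusted p = 0.108) and C1qc (0.0623) both lost it, and C1qa also with only the groups compared (0.310).

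C1s1, the gene of the protease that C1r activates, was read in all IFNγ libraries and in no medium library. C1s1 had 9, 18 and 15 reads in Atg5 KO and 11, 12 and 1 reads in WT libraries with IFNγ, and 0 in all 6 medium libraries. Set against a floor of 3 reads over the medium group, its level was 12.4-fold higher with IFNγ in Atg5 KO cells and 11.2-fold higher in WT cells. These ratios take the IFNγ reads as exact, so they are not bounds, and in WT cells library C gave 1 of the 24 reads. Tested because it is high with IFNγ, C1s1 passed in Atg5 KO cells (limma adjusted p = 0.0145) and missed in WT cells (adjusted p = 0.0659). Without WT IFNγ library C, which had the 1 read, it passed in WT cells too (3.83, adjusted p = 0.00895), as it did by limma voom (adjusted p = 0.0363), and without Atg5 KO IFNγ library A or B it missed in Atg5 KO cells (adjusted p = 0.0511 and 0.0678, limma).

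Among receptors and related integrin chains outside the members, Cd93, a surface receptor once proposed to bind C1q, was called lower with IFNγ, with a change of -2.25 in Atg5 KO cells (SE 0.46, limma adjusted p = 0.00323) and -1.67 in WT cells (SE 0.46, adjusted p = 0.0298). Its log2 values in WT IFNγ libraries were 6.08, 5.72 and 8.23, and library C lay within the WT medium range of 8.01 to 8.75. The WT call was lost without any 1 of 5 libraries, with adjusted p of 0.0563 to 0.190. Itgal, the alpha chain that pairs with Itgb2 in LFA-1, was called higher in Atg5 KO cells (1.54, SE 0.29, limma adjusted p = 0.00178) and not in WT cells (0.83, SE 0.29, adjusted p = 0.105). Without WT IFNγ library C, Itgal passed in WT cells as well (1.07, limma adjusted p = 0.0303). Itgam, the alpha chain of complement receptor 3, changed by -0.56 in Atg5 KO cells (SE 0.39, limma adjusted p = 0.49) and -0.85 in WT cells (SE 0.39, adjusted p = 0.233). Without WT IFNγ library C, Itgam passed in WT cells (-1.45, limma adjusted p = 0.00628), and without both letter C libraries it passed in Atg5 KO cells too (-0.92, adjusted p = 0.0450).

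**Figure D5:**
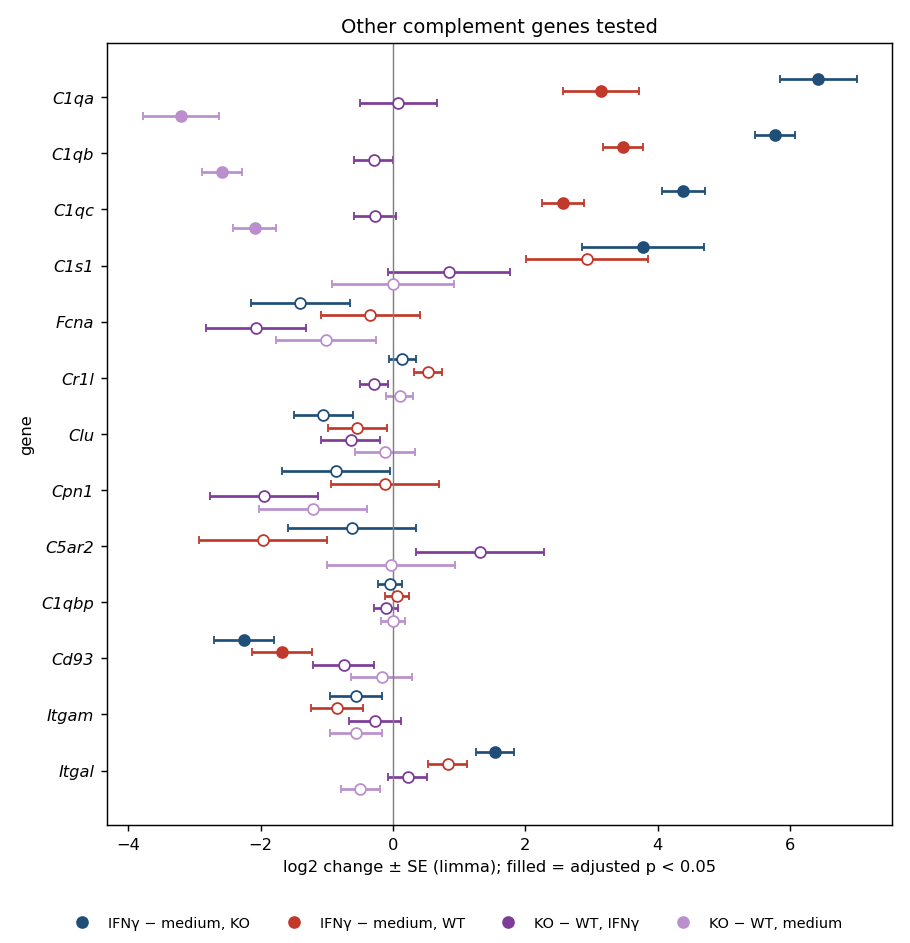
limma log2 changes (horizontal axis, bars ± SE) of 13 of the 14 other complement genes tested, for IFNγ against medium in Atg5 KO and in WT cells and for Atg5 KO against WT cells with IFNγ and in medium; filled points passed an adjusted p under 0.05. The C1q genes lie right of 0 with IFNγ and left of 0 for Atg5 KO in medium, and Cd93 lies left of 0 with IFNγ.

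Most late components went unread: C6, C7, C8a, C8b and C9, which build the membrane attack complex, had no read. C8g, the remaining C8 chain, had 25 reads over all 12 libraries and was below the filter. Of these, 4 were in Atg5 KO and 4 in WT cells with IFNγ, and 0 in Atg5 KO and 17 in WT cells in medium. Hc, the mouse C5 gene, had 1 read. Among inhibitors, Cfi and Cd55 had no read, and the membrane inhibitor Cd59a had 44 reads, below the filter. Cr1l, the rodent membrane inhibitor also called Crry, was read throughout, with group means of 7.93 in Atg5 KO and 8.22 in WT cells with IFNγ, and in medium 7.79 in Atg5 KO and 7.69 in WT cells. Clusterin (Clu), an inhibitor of the terminal complex, had 6.76 in Atg5 KO and 7.39 in WT cells with IFNγ, and in medium 7.81 in Atg5 KO and 7.93 in WT cells. Neither passed in a single comparison, but with both letter C libraries of the IFNγ groups left out Clu passed with IFNγ in Atg5 KO cells (-1.56, limma adjusted p = 0.00257) and in WT cells (-1.17, limma adjusted p = 0.0174). C2, the partner of C4b in the classical convertase, had 26 reads, below the filter. C2, C8g, Hc, Cd59a, Cr1l, Clu and Itgam were named after their values had been seen. In all, 21 of the 49 had no read, 13 were below the filter and C1s2 was not found in the table by symbol.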

How the data were processed

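RNA from 12 BV2 libraries was analysed from 1 deposited table of log2 values per gene. The deposited values equal log2 of a library-scaled count plus 1: undone, 100% of nonzero values fell within 0.01 of whole reads. Per the submitters' processing notes the authors used FastQC 0.11.2, STAR, HTSeq 0.6.1, DESeq2 1.10.1 and GRCm38; their roles, the annotation and the handling of reads with several matches are not given in the sources used here. Libraries held 3329849 to 7330435 reads. The members and lists were chosen with earlier results of these data known, and all 10 members are named, with the listed complement genes that were called or at 0 and, per member, the 2 genes of highest Pearson r.

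Genes reaching 3 on the log2 scale in 3 or more libraries (10981) were fitted with limma 3.58.1 (R 4.3.3): 1 mean per group over 12 libraries, 8 residual degrees of freedom, a mean-variance trend, two-sided, Benjamini-Hochberg adjusted over all kept genes. Fold changes on this scale understate those of low genes. The averaged contrasts were added after seeing the data. The scripts were checked on simulated data. Positions are from GENCODE M21, copies from BLAST+ 2.17.0 (at least 50 bases, 95% identity), promoters from RefSeq GRCm38.p6. Alternatives were limma voom on recovered reads, another pseudocount, other filters, fewer groups, no trend, a replicate block and left-out libraries. Results of 1 other complement gene are not reported here. P-values measure the spread between these libraries.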

Additional observations from a re-analysis of the deposited data

How the results depend on the processing

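Over the 5 single comparisons, 773 of 782 member values kept their side of the threshold without changing sign by more than their SE. Most of them were uncalled in the reported fit and stayed so. Another 6 lost their call and 2 gained one. The 1 value left was uncalled and moved, changing sign by more than its SE. In all, 25 uncalled values changed sign, and no called value reversed. The C1ra and C3 rises with IFNγ were called in all 20 alternatives in each genotype, C1ra with adjusted p up to 0.0372 and C3 up to 0.00899. The C4b rise in WT cells was called in 13 of 19 (also lost in limma with no filter, adjusted p = 0.0827, and no trend, adjusted p = 0.0870) and that in Atg5 KO cells in 2 of 19. The moved value was C4b between genotypes in medium, -0.60 without WT medium library A. The 1 member called between genotypes averaged over treatments (Itgax) gave 0 by limma voom, 0 with no filter, 0 without both IFNγ libraries of letter C, and 0 to 1 with each library left out. A filter of 5 on the log2 values removes C4b and Cfp. The edgeR and DESeq2 fits that had been planned on recovered reads were not run. In their place, limma voom was run on those reads. The cause of these shifts was not tested.

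Libraries with the same letter were not treated as pairs, since not every pair correlated over 0.1: their deviations correlated at -0.154 to 0.290 (median 0.0788), with 9 of 18 pairs over 0.1, against 3 of 36 pairs of unlike letters. As a hint from the data, same-letter libraries thus ran closer than others. With the letter as a replicate block, 2 members were called between genotypes averaged over treatments, Itgax and C5ar1 (-1.12, adjusted p = 0.0461).

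Over all genes, between genotypes with IFNγ, 54 called became 87 by voom, 32 unfiltered, 29 with those groups alone, 89 with the block, 18 without both C libraries and 23 to 83 with a library left out. In medium 47 became 30 by voom, 23 with those groups alone and as few as 24 with a library left out. For the interaction 0 became 1 with the block, and 3 without both C libraries or without Atg5 KO IFNγ library B. With IFNγ, the 808 in Atg5 KO cells fell to 513 without medium library A and 524 without IFNγ library A. The 730 in WT cells became 424 without IFNγ library A, 428 without B, 448 without medium library B and 1119 without both C libraries. Averaged between genotypes, 163 became 85 without WT medium library C.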
